A study of Mus musculus with 40 samples.

Results

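The adipogenic transcription factors are 9 regulators of fat cell formation, Pparg, Cebpa, Cebpb, Cebpd, Klf15, Ebf1, Ebf2, Gata2 and Gata3. They were taken by their symbols in the annotation that was deposited with the arrays, where they are 9 of 29411 genes and are read by 12 of 40628 probes.

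When a preadipocyte receives the hormonal signal to mature, C/EBPβ and C/EBPδ appear early and switch on the genes of PPARγ and C/EBPα. PPARγ and C/EBPα then keep each other active and drive the genes of lipid storage, with KLF15, EBF1 and EBF2 promoting the program, whereas GATA2 and GATA3 hold preadipocytes in the immature state. The stromal vascular cells of fat are what remains when the tissue is digested and the floating adipocytes are taken off, and preadipocytes, endothelial cells and immune cells are among them.

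C57BL/6J mice were weaned at 3 to 4 weeks of age and then fed a low-fat control diet (LFC, 10% of calories from fat), a high-fat diet with more sucrose (HFC, 60% of calories from fat), or HFC with 5, 20 or 75 µg of Kal-1, a plant formulation given in water (HF5, HF20 and HF75). RNA of subcutaneous stromal vascular cells, which the series title calls infiltrating macrophages, was labelled in 1 colour and hybridised to Agilent arrays. Of the 40 arrays, 38 had labels without conflict, and they were 11 of LFC, 11 of HFC, 6 of HF5, 5 of HF20 and 5 of HF75. LFC and HFC had arrays at days 1, 6, 10, 14, 35, 56, 77, 98 and 140 of feeding and at week 15 of the titles, 21 days before the last, with a further array per diet at day 14 that was labelled week 0. HF5 was measured from day 35 to day 140, and HF20 and HF75 from day 35 to week 15, so that the mice were older by the same number of days. No mutation and no sex is named in the labels. The series text speaks of 3 biological replicates and the protocol of 5 animals killed per group and time, but each diet has 1 array per time label, and how many mice gave its RNA is not stated. The replicates of a diet are therefore separate arrays of different days, and each p below measures the spread between arrays of unknown numbers of mice.

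A level here is the log2 intensity of a probe minus that of the 75th percentile of its array, so that 0 is this percentile, and signals that did not stand well above background were set to the array's lowest level that did. Each gene is given by its brightest probe (for the genes of lists, the brightest on the arrays compared), and levels of different genes come from different probes and were not compared. The median ratio of signal to background was 4.86 per array, from 1.53 to 55.4, and between 17.2% and 87.2% of probes were well above background. The array at 17.2%, LFC of day 35, had all members but Cebpd at its raised minimum of -0.02. On the day 14 LFC array 9104 spots were marked as outliers against a median of 47.5, its signals of Ebf1 and of the brighter Klf15 probe were not well above background, while the dimmer Klf15 probe was, and its Gata3 spot was dropped, as it also was on the LFC array of week 0. Each of the 15 scan days held arrays of 1 time label. The 2 arrays of a pair were scanned on the same day in 10 of 11 pairs of HFC and LFC (all but day 1), in 6 of 6 of HF5 and HFC, in 4 of 5 of HF20 and HFC (all but day 35) and in 2 of 5 of HF75 and HFC (day 98 and week 15), and in the other pairs diet and scan day cannot be told apart.

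The cell type named in the series title was checked against marker genes. In 50% of the arrays or more, all 10 macrophage markers were well above background, and so were all 11 preadipocyte and fibroblast markers. The 6 adipocyte markers, 8 T cell markers and 6 B cell markers also passed this level. So did every other marker list, with skeletal muscle and epithelium among them, but for the mast cell markers with 8 of 9. The median array had 69.6% of its probes well above background, so passing this level does not tell which cell types were present. In bulk RNA, fewer cells of a type and less RNA per cell cannot be told apart. The summed level of the macrophage markers ran from 2.37 to 6.23 over the arrays, that of the fibroblast markers from 4.07 to 9.34, and that of the adipocyte markers from -3.49 to 9.89.

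The early factors are described first. Cebpb, whose protein is already present when differentiation begins, had a lowest, median and highest level of -1.49, 1.32 and 2.18 on the LFC arrays and of -0.01, 1.27 and 2.70 on the HFC arrays. The corresponding values were 0.01, 1.37 and 2.98 on HF5, and on the 5 arrays of days 35, 56, 77 and 98 and week 15 they were 1.08, 0.33, 0.75, 0.86 and 0.03 for HF20 and -0.30, 1.64, 0.50, 0.89 and 1.68 for HF75. The Cebpb ranges of the diets overlapped, and that of HF20 was the narrowest. Cebpd, the partner that cytokines and glucocorticoids induce, ran from 2.45 over a median of 4.36 to 6.17 on LFC and from 1.60 over 5.35 to 6.34 on HFC. It ran from 2.98 over 5.45 to 6.51 on HF5, and was 5.58, 5.04, 2.57, 3.44 and 3.98 on the HF20 arrays in order of day and 4.62, 6.26, 4.26, 5.58 and 6.29 on HF75. The low Cebpd levels stood on scattered arrays of several diets, with HFC of day 1 the lowest of all. The Cebpd probe was saturated on 6 arrays, so its levels there, between 5.57 and 6.34, are lower bounds, as is the Pparg level of 5.91 on HFC at day 1.

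By their SD, the master regulators had a wider spread than the early factors on each diet except HF75. Saturated levels were taken at their values, and by range this did not hold on HFC. Pparg, the nuclear receptor without which fat cells do not form, had a lowest, median and highest level of -0.87, 2.89 and 5.15 on LFC, of 1.20, 2.95 and 5.91 on HFC and of -0.95, 2.48 and 4.97 on HF5. In order of day it was 2.42, -0.07, 5.33, 5.33 and 4.87 on HF20 and 1.85, 1.01, 1.78, 1.63 and 2.36 on HF75. HF75 was the diet with the narrowest range, and no HF75 array reached the levels of 4.80 or more that each other diet had on at least 1 array. However, HF75 has no array before day 35 and none whose title holds the letters WS, which are described below. HF5 reached 4.80 only on its WS array, at day 77, and HFC only on its own WS array and at days 1 and 6. Cebpa, which maintains the mature fat cell and its insulin response, ran from -1.69 over a median of -0.02 to 4.60 on LFC, from -0.75 over -0.16 to 3.67 on HFC and from -2.40 over -0.76 to 3.60 on HF5. It was -0.90, -0.65, 3.86, 4.44 and 4.22 on HF20 and -1.72, -2.24, 0.09, -1.42 and -0.80 on HF75. Cebpa was thus above 3 on 9 arrays and below 1 on 27, with 2 arrays between.

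Klf15, a promoter of adipogenesis that also serves glucose and amino acid metabolism, ran from -5.53 over a median of 0.48 to 3.38 on LFC, from -0.64 over 0.05 to 2.72 on HFC and from -3.51 over 0.01 to 3.08 on HF5. On HF20 it was -0.52, 0.67, 2.62, 2.24 and 3.18 in order of day, and on HF75 it was -0.50, 0.52, -0.43, 0.94 and 1.34. The lowest Klf15 level was that of LFC at day 140, where the adipocyte and the fibroblast sums were the lowest of all arrays too.

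The early B-cell factors act in preadipocytes, and EBF2 also marks the precursors of brown and beige fat. Ebf1 ran from -3.65 over a median of -0.11 to 0.75 on LFC and from -0.56 over 0.03 to 0.45 on HFC, and Ebf2 from -6.78 over 0.16 to 1.18 on LFC and from 0.03 over 1.07 to 2.18 on HFC. The lowest value of each on LFC was a raised minimum, from a signal that was not well above background. On HF5, Ebf1 ran from -1.92 over -0.02 to 0.59 and Ebf2 from -3.35 over 0.71 to 1.1. The HF20 arrays had Ebf1 levels of 0.04, -1.97, -0.18, -0.21 and 0.77, and the HF75 arrays of -0.49, -1.91, -0.04, 0.19 and 0.23, while Ebf2 ran from -0.17 to 1.02 on HF20 and from -0.68 to 1.1 on HF75. Day 56 had the lowest Ebf1 level in each of the diets HFC, HF5, HF20 and HF75.

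GATA2 and GATA3 repress the Pparg promoter and bind C/EBP proteins, and outside fat GATA2 serves blood and mast cell precursors and GATA3 T cells and mammary epithelium. Gata2 ran from -1.46 over a median of -0.02 to 1.21 on LFC, from -0.26 over 0.38 to 0.78 on HFC and from -2.63 over 0.65 to 1.06 on HF5, and was 0.48, 1.72, -0.20, -0.64 and -0.50 on HF20 and 0.12, 2.49, -1.41, 0.59 and 1.33 on HF75. Gata3 ran from -4.42 over -1.09 to 0.81 on the 9 LFC arrays with a value, from -3.03 over -1.54 to 0.65 on HFC and from -2.32 over -0.17 to 1.53 on HF5, and was -0.35, 2.13, -2.20, -2.98 and -2.19 on HF20 and 0.26, -0.80, 0.32, -0.44 and -0.79 on HF75. The lowest Gata3 levels, those of LFC and HF20 at day 98 and of HFC at day 1, were on arrays with high Cebpa.

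**Figure D1:**
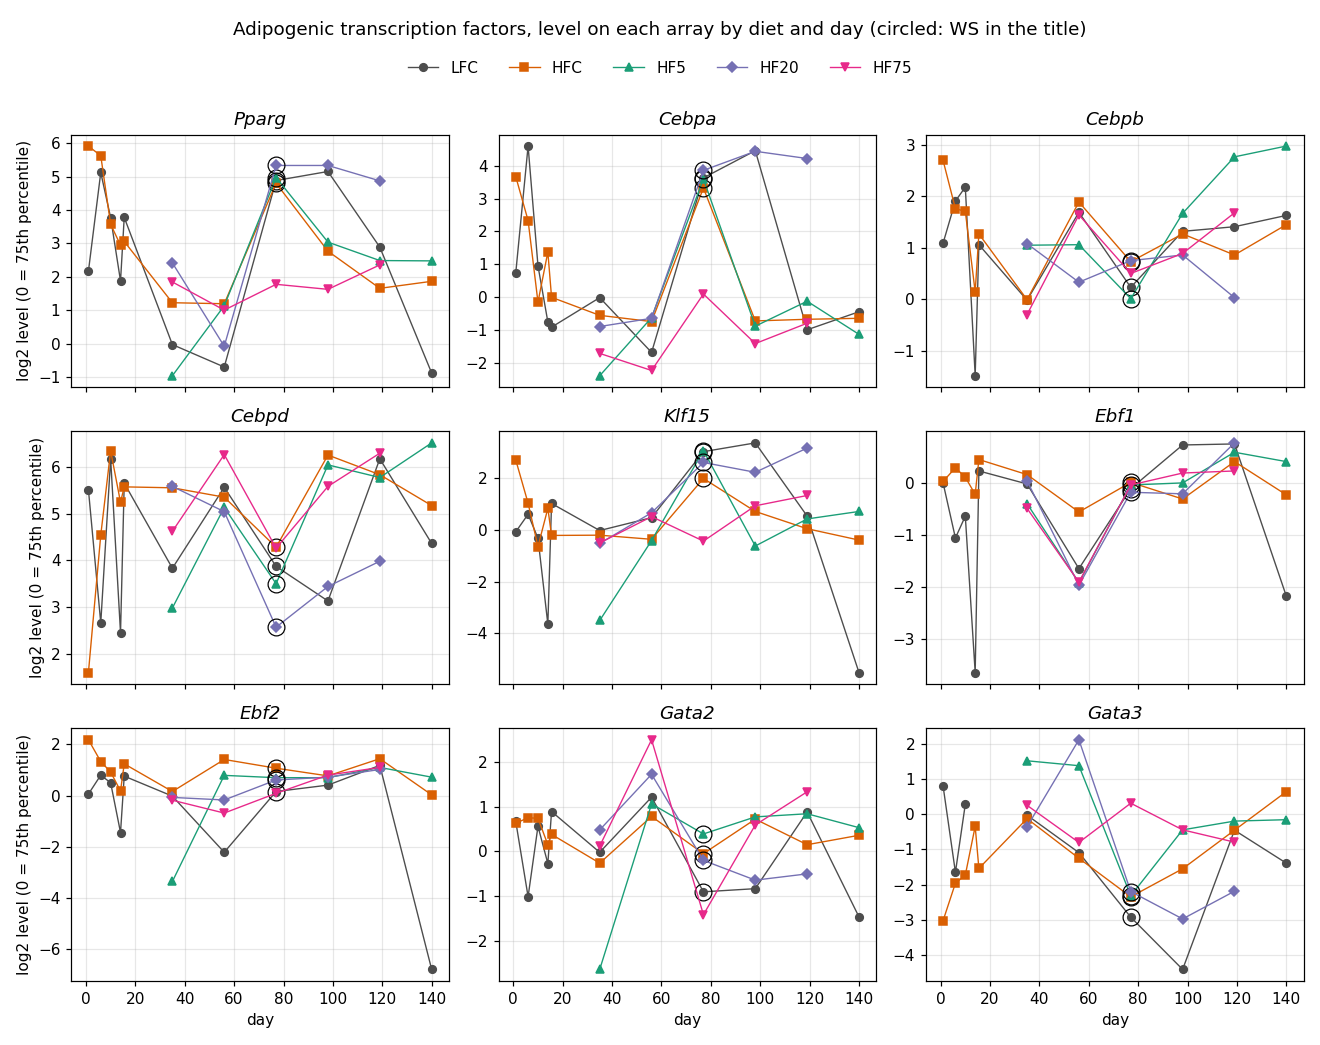
Level of each factor on each array (log2, 0 is the 75th percentile of the array) against the day of feeding, with 1 point per array, lines joining the arrays of a diet, the week 0 arrays drawn just right of day 14 and circles around the 4 arrays with WS in their titles. The arrays with Cebpa above 3 have Pparg at 4.80 or more and Cebpd at 4.28 or less, and among them are the circled ones with Cebpa between 3.32 and 3.86.

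At the 5 days that all diets share, the diets were ordered by their mean level, with 5 arrays in each. For Pparg the order was HF20 (3.58 ± 2.37 SD), LFC (2.44 ± 2.71), HFC (2.33 ± 1.52), HF5 (2.14 ± 2.21) and HF75 (1.73 ± 0.48), and for Cebpa it was HF20 (2.19 ± 2.72), LFC (1.08 ± 2.79), HFC (0.12 ± 1.79), HF5 (-0.09 ± 2.23) and HF75 (-1.22 ± 0.90). Both master regulators thus had the same order of diets, with gaps smaller than the spread. The LFC means of both hold the raised minimum of -0.02 at day 35. On that day HF5 minus HFC was -2.18 for Pparg and -1.83 for Cebpa, and HF5 ranks below HFC only with that day. Over the 9 members there are 36 steps between neighbours in such an order, and in 1 of them the gap was larger than the larger SD of the neighbours. That step was in Ebf2, with HFC at 0.97 ± 0.53 and HF20 at 0.42 ± 0.52, and HFC was the higher diet at 5 of 5 days, most of all at day 56 (1.41 against -0.17).

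The question of the diet itself is answered by HFC against LFC, over 11 pairs of arrays of the same time label. None of the 9 members passed limma's test, a count of 0 at an adjusted p under 0.05, beside 0% of the 29215 probes tested. At an unadjusted p under 0.05 there was 1 member, Ebf2, and 839 probes (2.87%). The methods' t-test without adjustment also gave 1 member, the same gene. Here and below that test was run over arrays of different time labels, not over replicates of 1 time point. Ebf2 was higher on HFC in 11 of 11 pairs, by 0.19 to 6.81 with a median of 0.53, and limma put the mean difference at 1.57 ± 0.56 (SE, 11 pairs; adjusted p = 0.954). The largest of these differences, 6.81 at day 140, is set against an LFC signal that was not well above background, and that of day 35, 0.19, against the dim LFC array. In the 4 pairs that share a slide the Ebf2 difference lay between 0.19 and 0.91. Ebf1 was higher on HFC in 9 of 11 pairs, and in 4 of 4 on a shared slide by 0.12 to 1.34, with a limma difference of 0.70 ± 0.38 (SE, 11 pairs; adjusted p = 0.954). Its largest difference, 3.43 at day 14, is set against an LFC signal that was not well above background, and without that pair the mean was 0.43, as that of Ebf2 was 1.05 without day 140. The preadipocyte and fibroblast markers were higher on HFC in 11 of 11 (median 1.17, summed level higher in 8 of 11 pairs), the endothelial markers in 6 of 6 (1.19, 7 of 11) and the immediate-early genes in 8 of 8 (1.32, 7 of 11), with 0 called by limma and 2, 1 and 2 at an unadjusted p under 0.05. Their largest summed differences, 4.41 for the fibroblast and 4.71 for the endothelial markers, were at day 140, where both LFC sums were the lowest of all arrays. Higher on HFC were also 19 of 20 adipogenesis inhibitors, 16 of 19 other promoters and 7 of 8 glucocorticoid response genes (4 at an unadjusted p under 0.05 by limma). The epithelial and the B cell markers were lower in 6 of 6. The part of all these lists in the Ebf1 and Ebf2 differences was not tested.

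The other members had no common direction between the diets. Pparg was higher on HFC in 6 of 11 pairs, from -2.38 at day 98 to 3.74 at day 1 (a lower bound, as the HFC spot was saturated), and Cebpa in 5 of 11, from -5.19 at day 98 to 2.94 at day 1. Cebpd ran the other way on those days, with 3.12 at day 98 and -3.91 at day 1, and was higher on HFC in 7 of 11 pairs. On other days this was not so, with both Pparg and Cebpd higher on HFC at day 14 (1.07 and 2.80) and at day 140 (2.73 and 0.81). At day 14 the 2 Cebpa probes differed in direction, with the brighter at 1.37 on HFC and -0.76 on LFC and the dimmer at -1.41 and 0.93. The limma differences of the members, with 11 pairs each except for Gata3 with 9, ran from -0.22 for Cebpa to 1.57 for Ebf2, with a median of 0.55 against -0.02 over 20847 genes. That of Cebpa was 0.28 without day 98 and -0.97 by the dimmer probe.

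The diet difference was also compared between the first 14 days (5 pairs) and later days (6 pairs). limma called 0 of the 9 members, beside 0% of 29215 probes, and at an unadjusted p under 0.05 there was 1 member and 1373 probes (4.7%). That member, Gata3, was lower on HFC in 3 of 3 early pairs with a value, by 0.31 to 3.84, and higher in 3 of 6 late pairs. Its change in difference was 2.92 ± 0.99 (SE, 9 pairs; limma adjusted p = 0.789), where the median over all probes was -0.51. The T cell markers had positive changes in 8 of 8 (median 3.87, 6 at an unadjusted p under 0.05), the lymph node stroma markers in 6 of 6 (median 4.26, 4 unadjusted) and the B cell markers in 6 of 6 (median 2.37, 1 unadjusted), against -0.497 over all genes. limma's adjustment left 0 of them, and their part in the Gata3 result was not tested. The day 14 and week 0 pairs have no Gata3 value, because the spot was dropped on the LFC arrays. With normexp background correction Gata3 passed, with an adjusted p of 0.0449, but the median over all probes was then 0.64 and 3063 probes were called upward.

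Within LFC, late arrays (6) were compared with early ones (5), and limma called 0 of 9 members, beside 0% of 29383 probes. At an unadjusted p under 0.05 there were 0 members and 703 probes (2.39%). The LFC differences ran from -1.53 for Gata3 (-0.99 without day 98) to 0.80 for Klf15. The latter was 0.01 without the day 14 array, whose level is a raised minimum, and -0.22 by the dimmer probe. Without the day 140 array it was 1.97. The late and early levels overlapped for each member. Pparg was lower late by 1.45 ± 1.21 (SE, 5 against 6 arrays; limma unadjusted p = 0.251), with its raised minimum of day 35 among the late levels. The PPARG and C/EBP target genes were lower late in 19 of 23 (median -1.51) and the adipocyte markers in 5 of 6 (-2.53). In both lists limma called 0 genes, and their part in the Pparg difference within LFC was not tested. The T cell markers were lower late in 8 of 8 (median -2.22, summed level -1.28 to 4.79 late and 1.88 to 5.38 early), the lymph node stroma markers in 6 of 6 (-3.22, 1.07 to 6.3 and 1.35 to 5.88) and the B cell markers in 6 of 6 (-1.97, -1.49 to 6.55 and 1.93 to 5.5), against 0.261 over all genes. limma called 0 of them, with 2, 3 and 1 at an unadjusted p under 0.05, and their part in the Gata3 difference was not tested.

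Within HFC, limma also called 0 of 9 members late against early, beside 0% of 32453 probes, and 1 member and 3456 probes (10.6%) had an unadjusted p under 0.05. The member was Pparg, which was 5.91, 5.62, 3.57, 2.95 and 3.06 on the early HFC arrays of day 1, 6, 10, 14 and week 0 and 1.23, 1.20, 4.80, 2.77, 1.66 and 1.87 on the late ones from day 35 to 140. The early levels were above 5 of the 6 late ones, and the array of day 77, whose title holds the letters WS, lay among them. The difference was -1.97 ± 0.77 (SE, 5 against 6 arrays; limma adjusted p = 0.415), with the saturated early spot of day 1 taken at its value. The PPARG and C/EBP target genes were lower late in 23 of 23, with a median of -1.61 against -0.255 over all 23389 genes, 9 of them at an unadjusted p under 0.05 and 0 after limma's adjustment. The adipocyte markers were lower late in 6 of 6 (median -1.8, summed level 3.63 to 7.70 late and 6.30 to 9.89 early), while the macrophage markers were higher in 10 of 10 (median 0.719, 4.31 to 6.23 and 2.37 to 5.28) and the fibroblast markers in 9 of 11 (median 0.701, 7.74 to 8.58 and 7.19 to 8.42). Their part in the Pparg difference was not tested. Within LFC the target genes (19 of 23), the adipocyte markers (5 of 6) and Pparg (-1.45) were lower late too. Klf15, Ebf1, Ebf2, Gata2, Cebpa and Cebpb also had negative differences, from -1.45 for Cebpa to -0.22 for Ebf1. Without the day 1 array that of Klf15 was 0.05 and that of Cebpa -0.89.

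The Kal-1 doses were each compared with HFC at the same days, and these comparisons share the HFC arrays. For HF5 over 6 pairs, limma called 0 of 9 members, beside 0% of 29200 probes, with 0 members and 1453 probes (4.98%) at an unadjusted p under 0.05. The methods' t-test, unadjusted, gave 0 members too. HF5 differences ran from -0.70 for Ebf2, lower in 5 of 6 pairs, to 0.82 for Gata3, higher in 5 of 6. They were -0.14 for Ebf2 without day 35 and 0.45 for Gata3 without day 56, and in the pairs on a shared slide 0.10 and 0.19. The fibroblast markers were lower on HF5 in 11 of 11 (median -0.561) and the adipocyte markers in 6 of 6 (-0.579). The endothelial markers were lower in 6 of 6 (-0.463) and the macrophage markers in 8 of 10 (-0.423), while the epithelial markers were higher in 6 of 6 (1.34). limma called 0 of them, with 2, 1, 0, 4 and 1 at an unadjusted p under 0.05. The summed level was higher on HF5 in 0, 2, 4, 3 and 4 of 6 pairs in this order of lists. The part of these shifts in the members' differences was not tested. In the 3 pairs on a shared slide Cebpb was higher on HF5 in 3 of 3, by 0.41 to 1.91, and in the 3 others it was higher in 1. Pparg (0.27 to 0.83), Ebf1 (0.18 to 0.64) and Gata2 (0.05 to 0.68) were also higher in 3 of 3. In the 3 others they were higher in 1, 0 and 2.

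For HF20 over 5 pairs, limma called 0 of 9 members, beside 0% of 30831 probes. At an unadjusted p under 0.05 there were 2 members, Cebpd and Klf15, and 3648 probes (11.8%), while the methods' t-test gave 0 members. The HFC arrays of days 35, 56, 77 and 98 and week 15 had Cebpd levels of 5.55, 5.35, 4.28, 6.25 and 5.83, and HF20 was lower on 4 of 5 days, with differences down to -2.81 at day 98, and the HFC spot of week 15 was saturated. HF20 had Cebpa at 4.44 and 4.22 at day 98 and week 15, where HFC was at -0.73 and -0.68, and on the 3 other days the diets were within 0.54 of each other. The difference was -1.33 ± 0.46 for Cebpd (SE, 5 pairs; limma adjusted p = 0.402), 1.19 ± 0.49 for Klf15 (higher in 4 of 5; adjusted p = 0.402) and 2.07 ± 0.99 for Cebpa (higher in 4 of 5; adjusted p = 0.403). With 1 day left out the smallest values were -0.96 for Cebpd and 1.30 for Cebpa (without day 98) and 0.71 for Klf15 (without week 15). With these went 21 of 23 PPARG and C/EBP target genes at positive differences, with a median of 1.73 against 0.08 over all genes, and 8 of 8 immediate-early genes at negative ones, with 0 called in either list. The adipocyte markers were higher in 6 of 6 (median 2.09), whereas the fibroblast markers were lower in 11 of 11 (-0.72), the macrophage markers in 9 of 10 (-0.479), the endothelial markers in 6 of 6 (-0.69) and the lymph node stroma markers in 6 of 6 (-1.76). The summed level was higher on HF20 in 4, 0, 0, 1 and 0 of 5 pairs in this order of lists. The glucocorticoid response genes were also lower in 7 of 8 (median -0.771, 4 at an unadjusted p under 0.05). The T cell markers were lower in 6 of 8 (-1.74, 3 unadjusted), and the summed levels of these lists were higher in 0 and 1 of 5 pairs. The part of all these shifts in the members' differences was not tested. Ebf2 was lower on HF20 than on HFC in 5 of 5 pairs, by 0.05 to 1.58 (-0.55 ± 0.29, SE; limma adjusted p = 0.411), and without day 56, the largest, the mean was -0.29.

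For HF75 over 5 pairs, limma called 0 of 9 members, beside 0.875% of 28910 probes, where 205 probes were higher and 48 lower. At an unadjusted p under 0.05 there was 1 member, Cebpa, beside 4181 probes (14.5%), and the methods' t-test gave 0 members. Cebpa was lower on HF75 in 5 of 5 pairs, by 0.12 at week 15 to 3.23 at day 77, with a difference of -1.34 ± 0.45 (SE; limma adjusted p = 0.257). The day with the largest gap is the one on which the HFC title holds WS and the HF75 title does not, and without it the difference was -0.86 (adjusted p = 0.276). In the 2 pairs scanned on the same day it was -0.69 and -0.12, and limma called 0 members and 0 of 31176 probes there (adjusted p = 0.999 for Cebpa). Ebf2 was higher on HF75 than on HFC in 1 of 5 pairs, from -2.09 at day 56 to 0.03 at day 98. Its difference was -0.746 ± 0.355 (SE; limma adjusted p = 0.408). The macrophage markers were lower on HF75 in 9 of 10 (median -0.962, 5 at an unadjusted p under 0.05) and their summed level in 5 of 5 pairs, with differences from -1.45 to -0.319. The fibroblast markers were lower in 10 of 11 (-0.453, 5 unadjusted), the mast cell markers lower in 7 of 8 (-1.21, 3) and the epithelial markers higher in 6 of 6 (1.54, 3). The part of these lists in the Cebpa difference was not tested. None of the genes on the 15 marker and pathway lists was called in the HF75 comparison or in those of the other diets. A slope over the doses of 0, 5, 20 and 75 µg, coded as equal steps over 20 arrays, gave 0 members by limma beside 0% of 31278 probes, and 0 members and 2311 probes (7.39%) at an unadjusted p under 0.05. The members' slopes per step ran from -0.18 for Ebf2 to 0.16 for Klf15, and with the scan day as the block limma called 0 members too.

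The titles of 4 of the 5 arrays of week 9 (day 77) hold the letters WS, which the labels do not explain, and these arrays were compared with the 8 of the same diets at weeks 6 and 15. Cebpa was 3.63 on the WS array of LFC, 3.32 on HFC, 3.60 on HF5 and 3.86 on HF20, and on the 8 others it had a lowest, median and highest level of -1.69, -0.67 and 4.22. Klf15 was 3.04, 2.0, 3.08 and 2.62 on the WS arrays in the same order, against -0.41, 0.46 and 3.18. Cebpd was 3.87, 4.28, 3.50 and 2.57, against 3.98, 5.45 and 6.17. In each of the 3 genes the WS arrays stood apart from 7 of the 8 others, and the eighth, HF20 of week 15, lay within or beyond their range.

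These were the 3 of 9 members that limma called, beside 5.71% of 31346 probes (1170 higher and 620 lower), and 6 members and 8985 probes (28.7%) had an unadjusted p under 0.05. With the slide as a random block, at a correlation of 0.754, 0 members and 0 probes were called. Cebpa rose by 3.77 ± 0.80 (SE, 4 against 8 arrays; limma adjusted p = 0.0439), and Klf15 rose by 2.11 ± 0.51 (adjusted p = 0.0474), both above the other weeks in 3 of 4 diets. Cebpd fell by 1.80 ± 0.28 (SE; limma adjusted p = 0.0419) and was lower on the WS array than at both other weeks in 4 of 4 diets. The Cebpd spot was saturated on 3 of the 8 other arrays (LFC, HFC and HF5 of week 15), so the size of this difference is a lower bound. Pparg lay between 4.80 and 5.33 on the WS arrays and between -0.69 and 4.87 on the others, and its difference of 3.31 ± 0.91 did not pass (adjusted p = 0.0591). Gata3 lay between -2.93 and -2.20 on the WS arrays, against -2.19 to 2.13, and did not pass either (-2.19 ± 0.71; limma adjusted p = 0.0861), nor did Gata2, Cebpb, Ebf1 and Ebf2, with differences of -0.96, -0.82, 0.37 and 0.07.

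The calls depend on which arrays stand on the other side. Against week 6 alone limma called 7 members (the 3 with Pparg, Gata2, Ebf1 and Gata3) and 7732 probes, and against week 15 alone it called 0 members and 0 probes. The WS arrays lie on slides that hold no other array, and with the slide as a random block the adjusted p was 0.291 for Cebpa and for Cebpd. The WS arrays were scanned on a day of their own, so WS, week 9, slide and scan day cannot be told apart.

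The week 9 array of HF75, whose title lacks WS, gives a single value at the same time. Cebpa was 0.09 there against -2.24 at week 6 and -0.80 at week 15, Cebpd was 4.26 against 6.26 and 6.29, and Klf15 was -0.43 against 0.52 and 1.34. Cebpd was thus below both other weeks of HF75 and Cebpa above them, as on the WS arrays, while Klf15 lay on the other side, and Pparg at 1.78 lay between 1.01 and 2.36.

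**Figure D2:**
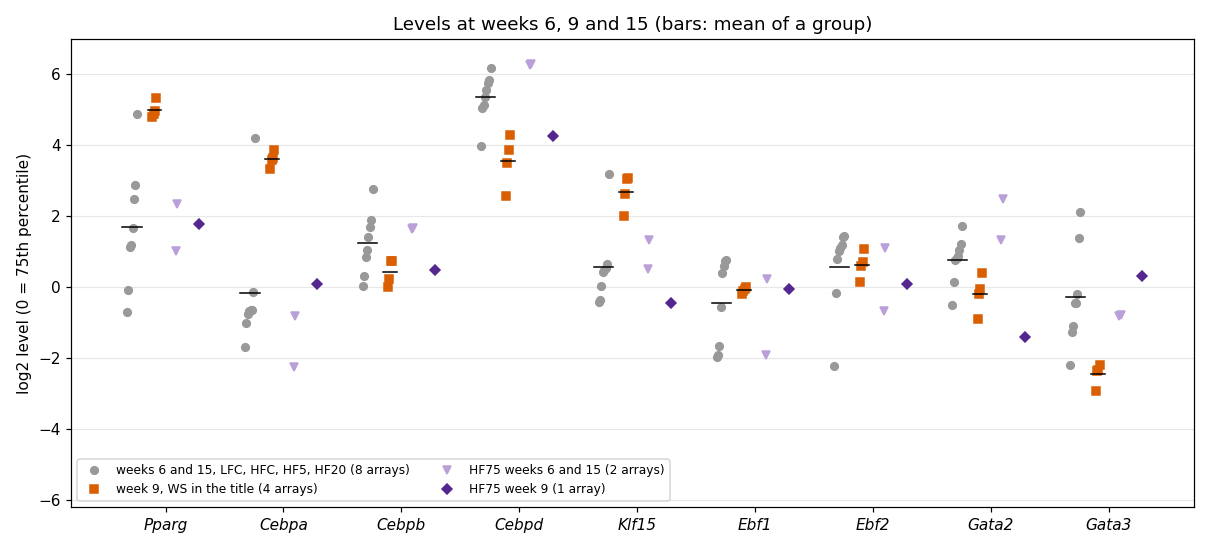
Level of each factor (log2, 0 is the 75th percentile of the array) at weeks 6, 9 and 15, with 1 point per array and bars at the mean of the 4 WS arrays and of the 8 others of the same diets. The WS arrays have Cebpa between 3.32 and 3.86 and Cebpd between 2.57 and 4.28, while the single HF75 array of week 9 has Cebpa at 0.09 and Cebpd at 4.26.

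Genes downstream of the factors stood with them on the WS arrays, in calls that depend on the slide as those of the members do. Of the 23 PPARG and C/EBP target genes, 15 rose and 0 fell, with a median of 3.28 against 0.05 over 22468 genes, and the largest differences were those of the adrenergic receptor Adrb3 (6.52 ± 1.21 SE), the satiety hormone Lep (6.37 ± 0.92) and the adipokine Retn (6.30 ± 1.29), with limma adjusted p of 0.0428, 0.0419 and 0.0428. With the slide block 0 of the 15 calls remained. Of the 6 adipocyte markers, which are also target genes, 5 rose (0 with the slide block), with Plin1, the coat protein of lipid droplets, at 5.52. Their summed level was 7.70 to 8.06 on the WS arrays and 3.53 to 8.16 on the others. The other promoters of adipogenesis were more even, with 2 of 19 higher (Nr1h3 by 1.92, Lmo4 by 1.48) and 1 lower (Klf4, -1.56), and 0 called with the slide block.

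Of the 20 inhibitors of adipogenesis, 0 rose and 4 fell, among them Sox9 (-4.59 ± 0.87 SE), Zfpm2, a partner of GATA factors (-1.87 ± 0.29), and Klf3 (-1.59 ± 0.35), and with the slide block 0 of these calls remained. The immediate-early genes, which are induced within minutes by growth factors or stress, fell in 8 of 8, by 6.10 for Fos, 5.21 for Fosb and 4.71 for Atf3, and in 0 of 8 with the slide block. Their summed level was 3.59 to 6.75 on the WS arrays and 6.29 to 8.64 on the others. Of the glucocorticoid response genes 4 of 8 fell, among them Dusp1 (-2.49), Mt1 (-2.11) and Mt2 (-2.03), again 0 with the slide block. These lists moved with Cebpa, Klf15 and Cebpd on the same arrays, and their part in the result was not tested.

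Markers of other cell types differed between the same arrays. The epithelial markers fell in 3 of 6, with Krt8 at -9.58 (a bound on the size, as it was well above background on 2 of the 4 WS arrays), Krt18 at -7.69 and Krt14 at -4.47, and their summed level was -2.63 to -0.93 on the WS arrays against 0.20 to 7.74. Lymph node stroma markers fell in 2 of 6 (Ccr7, -3.54, and Ccl19, -3.05), and 1 gene fell in each of the preadipocyte and fibroblast list (Pdgfra by 1.30, 1 of 11), the macrophage list (Cd14 by 2.98, 1 of 10) and the endothelial list (Vwf by 2.06, 1 of 6), while with the slide block 0 genes of any list were called. The summed level was 7.58 to 7.74 against 7.64 to 8.53 for the fibroblast markers and 4.32 to 4.99 against 4.50 to 6.23 for the macrophage markers. limma called 0 of 4 B cell markers tested (2 at an unadjusted p under 0.05), 0 of 8 T cell markers (1), 0 of 8 mast cell markers (1) and 0 of 6 skeletal muscle markers (0). Their part in the members' levels was not tested.

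Beyond the WS arrays, Cebpa was high on 5 others. Ordered by Cebpa, the 38 arrays began with LFC at day 6 (4.60), LFC at day 98 (4.46), HF20 at day 98, week 15 and day 77 (4.44, 4.22 and 3.86), HFC at day 1 (3.67), LFC at day 77 (3.63), HF5 at day 77 (3.60) and HFC at day 77 (3.32). The widest step in the order, 0.99, came next, down to HFC at day 6 with 2.33. It was followed by a step nearly as wide, 0.96, down to HFC at day 14 with 1.37. The lowest array was HF5 at day 35 with -2.40. The high arrays were thus of 4 diets and of days 1, 6, 77 and 98 and week 15, with none from HF75. HF75 was not measured at days 1 and 6, and its title of day 77 lacks WS. Each of these 9 arrays also had Pparg at 4.80 or more, an adipocyte sum of 7.70 or more, an immediate-early sum of 6.75 or less and Cebpd at 4.28 or less. The titles of the day 6 arrays begin with another prefix than the rest, and those of LFC and HF20 at day 98 name no week and that of HF20 at week 15 holds R2, and what these marks mean is not stated. The part of such marks and of the adipocyte RNA in the levels of the factors was not tested.

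Levels without this match also occurred. HFC at day 6 had the highest adipocyte sum, 9.89, with Pparg at 5.62, Cebpa at 2.33, Cebpd at 4.54 and an immediate-early sum of 7.70. HF75 at day 77 had an adipocyte sum of 7.66, close to the WS arrays, with Pparg at 1.78 and Cebpa at 0.09 and an immediate-early sum of 7.86. On those 2 arrays the adipocyte sum was high while the immediate-early sum was not low. LFC at day 10 and HFC at day 14 came close, with adipocyte sums of 7.62 and 7.56. Their immediate-early sums were 8.44 and 8.09, with Cebpa at 0.95 and 1.37. HF5 at day 35 and LFC at day 140 were low in Pparg (-0.95 and -0.87), in Klf15 (-3.51 and -5.53) and in the endothelial sum (1.33 and 1.17), where the median endothelial sum was 6.06.

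**Figure D3:**
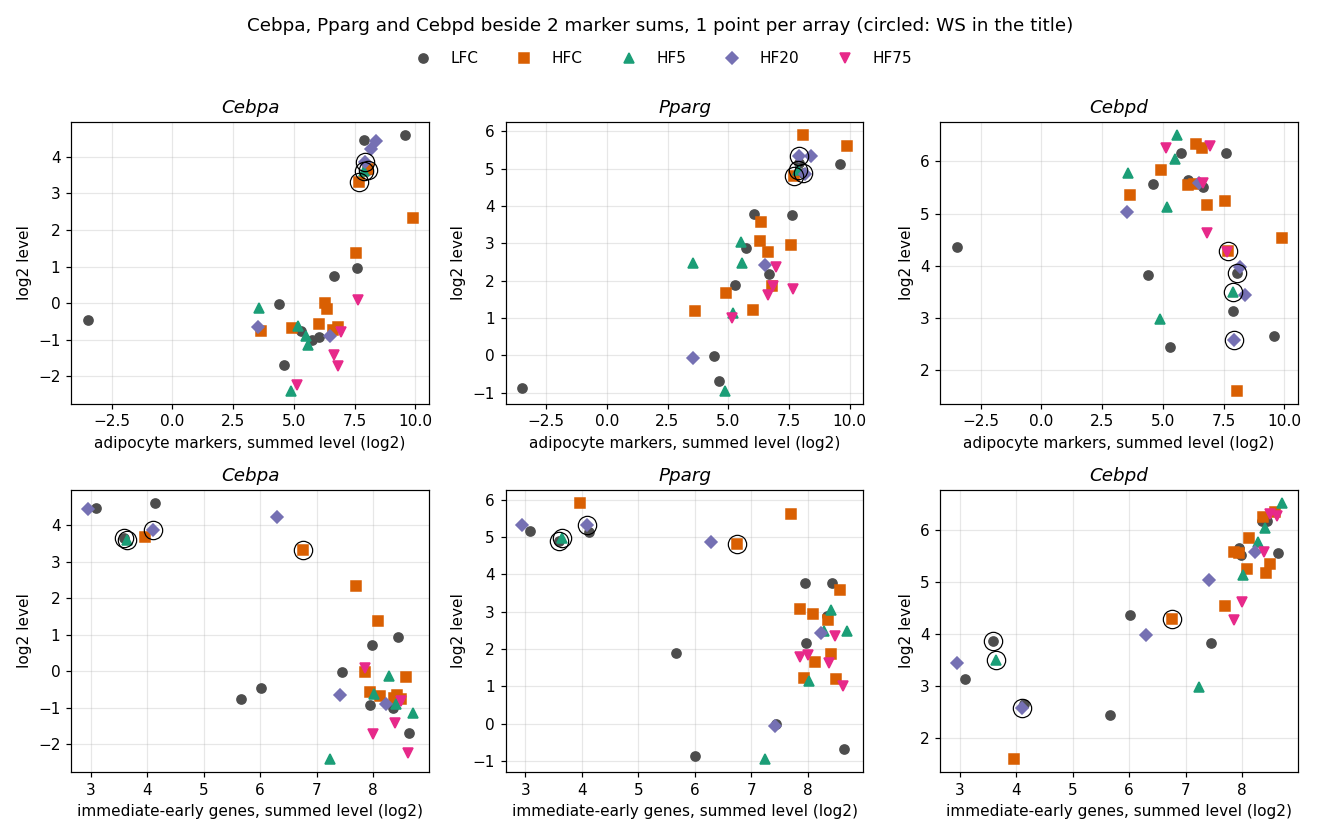
Levels of Cebpa, Pparg and Cebpd (log2, 0 is the 75th percentile of the array) against the summed level of the 6 adipocyte markers (upper row) and of the 8 immediate-early genes (lower row), with 1 point per array, coloured by diet and circled where the title holds WS. The arrays with Cebpa above 3 lie at adipocyte sums of 7.70 or more and immediate-early sums of 6.75 or less, and Cebpd is low on them.

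How the members vary among themselves was measured on the 32 arrays that are neither WS nor the LFC arrays of day 35 and of the day 14 label. Because these fall into a cluster of 5 with high Cebpa and one of 27 below the widest step, no r is given over all of them, and the 5 are too few for one of their own. Over the 27, a split chosen after the data were seen, 2 of 36 pairs had Pearson's r and Spearman's rho both at an adjusted permutation p under 0.05. Ebf1 and Ebf2 had r = 0.603 (permutation p = 0.0014, adjusted 0.0075) and rho = 0.662 (p = 0.0002, adjusted 0.0072). Pparg and Ebf1 had r = 0.644 (permutation p = 0.00037, adjusted 0.0044) and rho = 0.582 (p = 0.0019, adjusted 0.033). Both relations were positive, and r stayed so without the 2 arrays farthest from the median of the gene named earlier, at 0.481 and 0.727, and among the 23 arrays that share a time point with another after its mean was removed, at 0.789 and 0.559.

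Among genes that stood well above background on 90% of the 32 arrays or more, the 3 most like each member by rank were listed, here with rho over the 32 and then over the 27 arrays, as a description without a test. For Pparg they were Fabp4 (0.967, 0.952), Cd36 (0.954, 0.938) and Mgll (0.953, 0.935), which carry, take up and release fatty acids in fat cells. For Cebpa they were 1700037H04Rik (0.879, 0.802), Dlst (0.869, 0.802), an enzyme subunit of the citric acid cycle, and Gm9791 (0.866, 0.788). The rho values of Pparg with these genes of lipid handling were above those of Cebpa with any of the genes so searched. For Cebpd they were Alkbh3 (0.940, 0.927), the immediate-early factor Egr2 (0.933, 0.902) and the cytokine Il6 (0.923, 0.889), and for Cebpb they were Ccrn4l (0.677, 0.687), Kdm5c (0.669, 0.631) and Chst15 (0.664, 0.755). The early factors had different lists, and Cebpb had no close match.

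For Klf15 the most like genes were 1600012F09Rik (0.863, 0.808), Ei24 (0.848, 0.808) and Fdx1 (0.845, 0.777). For Ebf1 they were Mdfic (0.821, 0.859), the mesenchymal factor Twist1 (0.808, 0.819) and Ppfibp1 (0.769, 0.737), and for Ebf2 they were Rarb, a retinoic acid receptor (0.789, 0.810), Pde8a (0.75, 0.759) and Cask (0.745, 0.712). Ebf1 thus followed a gene of mesenchymal cells. For Gata2 they were Enah (0.898, 0.892), Tmem22 (0.894, 0.874) and Fam176a (0.886, 0.847), and for Gata3, over 31 and 26 arrays, Dapl1 (0.90, 0.868), Tbc1d1 (0.852, 0.755) and Emb (0.846, 0.770). None of these names is a T cell or mast cell marker of the lists. Markers that were dim on many arrays could not appear, such as Ms4a2 and Tpsab1, well above background on 8 and 26 of 38 arrays. The names therefore do not tell in which cells Gata2 and Gata3 were expressed.

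Of the members, 3 have a second, dimmer probe. Over the 32 arrays the probes had a rho of 0.957 for Cebpa, 0.831 for Gata2 and 0.663 for Klf15, and the Klf15 probes differed in sign between HFC and LFC, at 0.55 for the brighter and -1.02 for the dimmer. In the WS comparison both probes of Klf15 and of Cebpa rose, the dimmer ones by 1.68 and 3.34.

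Promoters are shown for Cebpa, Pparg and Klf15, the 3 members with the largest positive differences on the WS arrays. RefSeq on GRCm38.p6 gave 11 promoters for 7 of the members, each 300 bases long and ending 50 bases after the start of transcription, and none for Cebpd or Ebf2. The 4 motifs searched on both strands were TTNNGNAA (read by C/EBP proteins), AGATAA (read by GATA factors), CACGTG (an E-box) and, last, CCAAT, and matches of different motifs may share letters. They are found in 40.7%, 11.2%, 7.15% and 37.4% of 32851 promoters and in 4, 0, 1 and 4 of the members' 11. Capitals mark TTNNGNAA in Pparg, 2 matches, and CACGTG in Klf15, 3 matches, and the Cebpa window holds neither. Each is written 5′ to 3′ on the plus strand, at chr6:115421816-115422115 for Pparg, chr7:35119043-35119342 for Cebpa and chr6:90462326-90462625 for Klf15.
Pparg: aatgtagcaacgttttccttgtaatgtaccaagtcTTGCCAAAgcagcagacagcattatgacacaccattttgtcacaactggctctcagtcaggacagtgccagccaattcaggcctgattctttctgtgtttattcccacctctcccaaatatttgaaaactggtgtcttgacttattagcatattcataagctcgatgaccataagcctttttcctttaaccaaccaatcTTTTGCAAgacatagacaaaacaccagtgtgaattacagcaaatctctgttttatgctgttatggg
Cebpa: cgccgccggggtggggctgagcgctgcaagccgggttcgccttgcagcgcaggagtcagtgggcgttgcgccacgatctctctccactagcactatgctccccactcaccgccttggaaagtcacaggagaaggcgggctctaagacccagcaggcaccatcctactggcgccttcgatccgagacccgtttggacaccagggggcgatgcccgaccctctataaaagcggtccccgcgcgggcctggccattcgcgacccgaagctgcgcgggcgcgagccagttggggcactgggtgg
Klf15: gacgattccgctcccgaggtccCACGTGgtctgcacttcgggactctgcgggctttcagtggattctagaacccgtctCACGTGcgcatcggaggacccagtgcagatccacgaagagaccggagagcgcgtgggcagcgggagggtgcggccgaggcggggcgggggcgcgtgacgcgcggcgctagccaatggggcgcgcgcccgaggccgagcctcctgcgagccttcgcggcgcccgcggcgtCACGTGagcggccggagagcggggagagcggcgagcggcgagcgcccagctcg
A match is a run of letters and not a site of binding. The Pparg window shown is 1 of its 3, and the others hold no TTNNGNAA.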

How the data were processed

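RNA from 38 of 40 Agilent arrays was used. Per the file headers, the deposited intensities (gProcessedSignal) were made by Feature Extraction 10.5.1.1, with the background subtracted and no scaling between arrays. From the authors' deposited fold changes, on the log2 scale, only the probe annotation was taken. The 2 arrays left out, of week 18, have labels that conflict in dose.

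In Python 3.11.15 (NumPy 2.4.6, pandas 2.3.3, SciPy 1.17.1, matplotlib 3.10.9), the 75th percentile of each array was subtracted from its log2 intensities, outlier spots dropped, duplicate spots averaged and signals not well above background raised to the array's lowest level that was. Probes that stood well above background in 50% or more of the arrays on either side were fitted with limma 3.58.1 in R 4.3.3, tested on simulated data, with the time point as a block (diet for the WS comparison) and a Benjamini-Hochberg adjusted p under 0.05 over all probes. Named genes are the 9 members, up to the 3 largest called differences in each direction of each list, and the 3 genes most like each member. The lists were other adipogenic promoters, adipogenesis inhibitors, PPARG and C/EBP target genes, immediate-early and glucocorticoid response genes, and markers of adipocytes, preadipocytes and fibroblasts, macrophages, B cells, T cells, mast cells, endothelium, skeletal muscle, epithelium and lymph node stroma. Members and lists were chosen with earlier results of these data known. Permutation p-values are two-sided, from 100000 resamples. The number of arrays limits the precision.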

Additional observations from a re-analysis of the deposited data

Results flagged for a closer look

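In groups of 4 to 10 arrays, a member's highest or lowest array was singled out where its gap to the next was large for the range of the group, by Dixon's criterion, which chance meets in about 1 in 20 groups. Of 62 groups, 4 held such an array. Cebpa on the late HFC arrays was 3.32 at day 77, where the title holds WS, and the next highest of the 6 was -0.56. Klf15 on the early LFC arrays was -3.65 on the array labelled day 14, from a signal not well above background, and the next of the 5 was -0.32. The dimmer Klf15 probe did not repeat this, since it was well above background on that array at -0.34, the highest of its 5 early LFC levels. Ebf2 on HF5 was -3.35 at day 35, and the next of the 6 was 0.70. Gata2 on HF5 was -2.63 on the same array, and the next of the 6 was 0.39. The cause of these values was not tested.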

How the results depend on the processing

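Over the 8 comparisons other than that of the WS arrays, 147 alternative settings were run, 9 of which leave out the same arrays as another, and 145 of them called 0 members, as the limma results above do. The exceptions were the methods' t-test without adjustment for HFC against LFC, with 1 member (Ebf2), and normexp background correction for the late minus early difference, with 1 member (Gata3), where the median over all probes moved from -0.51 to 0.64. The cause was not tested. For HFC against LFC the Ebf2 difference kept its sign in 23 settings, from 0.52 to 1.79, with a lowest adjusted p of 0.722, and the Cebpa difference of HF75 against HFC in 14, from -1.64 to -0.86 (without day 77) and -0.41 (in the 2 pairs scanned on the same day, an alternative added after seeing the data), with a lowest adjusted p of 0.0961. Of the 9 members, the sign changed in at least 1 setting for 3 in HFC against LFC and in the late minus early difference, 5 in LFC over time, 2 in HFC over time, 7 in HF5, 3 in HF20, 5 in HF75 and 6 in the dose order.

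In the WS comparison 5 of 10 settings gave 3 or 4 members. Normexp correction gave 1 member (Cebpd), no filter on dim probes 0, the slide as a random block 0, and leaving out week 6 or week 15 from 0 to 7, and the cause was not tested. Without the replicate block (no diet term) 4 members were called. The pairs called among the 36 between members were 9 on the 32 arrays, 13 on all 38, 9 after quantile normalization and 2 without the arrays above the widest step in Cebpa, an alternative chosen after seeing the data.

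Arrays of the same time label deviated together to a varying degree, with correlations of -0.266 to 0.651 between HFC and LFC (8 of 11 over 0.1, and 5 of 11 best with their own label), 0.216 to 0.874 for HF5 (6 of 6), -0.228 to 0.607 for HF20 (3 of 5) and -0.048 to 0.547 for HF75 (3 of 5). Without this pairing, that is with no replicate block, 0 members were called in each of these comparisons and in the late minus early difference and dose order, and the probes called between HF75 and HFC went from 253 to 3. That count was 8671 without the filter on dim probes, 1 by the methods' t-test with adjustment, and from 0 to 127 with 1 time point left out, being 0 without day 35, day 56 or week 15, and 0 in the pairs scanned on the same day. The slide as a random block could not be fitted for the comparisons over time within a diet, HF20 and HF75, which share no slides. The limits of the arrays themselves are the dim LFC array of day 35, with a signal 1.53 times background, saturation of Cebpd on 6 arrays and of Pparg on 1, and 1 array per diet and time.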

Other observations

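The 2 arrays of week 18 whose labels conflict in dose were left out of every test. The array titled HF20, with 75 µg in its feeding label, had Pparg at 2.45, Cebpa at 0.54, Cebpb at 1.87, Cebpd at 6.41, Klf15 at 0.90, Ebf1 at 0.01, Ebf2 at 0.24, Gata2 at 1.04 and Gata3 at -0.70. The array titled HF75, with 20 µg in its feeding label, had Pparg at 0.91, Cebpa at -3.95, Cebpb at -1.16, Cebpd at 3.58, Klf15 at -2.15, Ebf1 at -2.18, Ebf2 at -2.14, Gata2 at -0.74 and Gata3 at -1.83. The 9 signals of each array were well above background.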
